A study of Mus musculus with 23 samples.

Results

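Synaptic vesicle fusion genes were followed in the prefrontal cortex of male wild-type C57BL/6 mice between postnatal week 2 and postnatal week 10. The group held 9 genes, Snap25, Vamp1, Vamp2, Stx1a, Syt1, Syt4, Syp, Syn1 and Syn2, out of 12393 genes with a probe set annotated to them alone. Members were chosen by gene symbol, and 16 of 22690 probe sets carried 1 of these symbols and no other. A gene's lead probe set was its brightest on average across the 23 arrays, and the other 7 probe sets are called second probe sets. All 9 lead probe sets and 6 of the 7 second probe sets passed the filter for testing, a log2 value of at least 4 on at least 4 arrays. The second Syp probe set did not, and a further Vamp1 probe set shared with other symbols was left out, with values of 2.64 to 2.86.

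The arrays came from 6 animals at week 2, 4 at week 3, 4 at week 4, 5 at week 5 and 4 at week 10, with 1 array per animal. The mice were male offspring of breeders mated in the submitters' colony, they carried no transgene or treatment per the labels, and the tissue was the brain in front of a coronal cut behind the frontal pole. The labels named a batch 1 of 19 animals and a batch 2 of 4, 2 aged 5 weeks and 2 aged 2 weeks. Values are GCRMA signals in log2 units, so a difference of 1 is a doubling of signal. Signals of different probe sets cannot be compared as levels, so ages are compared within a probe set, or in a difference or mean of fixed probe sets taken on the same array.

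A synaptic vesicle fuses with the plasma membrane when a SNARE protein on the vesicle, a VAMP or synaptobrevin, zips up with the plasma membrane SNAREs syntaxin and SNAP-25. Synaptotagmins on the vesicle sense calcium and couple its entry to fusion, and synapsins tether vesicles in a reserve away from the release site. In the forebrain this machinery is present in nearly all neurons, and VAMP2 is the usual vesicle SNARE, whereas VAMP1 is known mainly from brainstem, spinal cord and selected forebrain neurons.

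Age and scan day were largely confounded. The arrays were scanned on 7 days: all week 3 arrays on day 6, all week 4 arrays on day 5 with 1 of week 5, and weeks 2 and 10 met only on day 4, with 1 array each. Scan day 1 held week 10 animal 1 and week 5 batch 1 animal 2, the 2 arrays made from a separate chip lot. The actin 3′ minus 5′ difference, the log2 gap between control probe sets at the ends of the beta-actin transcript, was 2.25 to 2.28 in week 4 animals 1, 2 and 3, 1.50 in week 4 animal 6, and 1.07 to 1.24 at week 3. On scan day 1 it was 1.78 at week 10 and 1.69 at week 5, and in batch 2 it was 0.90 and 1.08 at week 2. Of the cortical projection neuron markers, Tbr1 averaged 9.38, Neurod6 9.25 and Camk2a 7.77 over the arrays, all above the filter value of 4. The pituitary hormone gene Gh was far above its other values in week 4 animal 2, where the mean of the 3 measured pituitary and other-region markers was 10.94, against 4.16 to 6.33 on all arrays of other ages.

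In week 10 against week 2, the lead probe sets of Vamp1 and Snap25 were called higher and no lead probe set was called lower. The second Stx1a probe set was called lower and the second Syt4 probe set higher. With limma, 2 of 9 lead probe sets were called at an adjusted p under 0.05, both higher, beside 17.1% of all tested probe sets called and 6.4% called higher. The split of all calls moved with the scaling: 1031 were higher and 1717 lower, against 1388 higher and 1340 lower with every array median set equal and 1473 higher and 1398 lower after a further quantile normalisation. The median change of the 9 lead probe sets was -0.27, beside -0.0003 over all tested probe sets. That median was the value of Syt1, and it was -0.06 without scan day 1, -0.07 without week 10 animal 1 and -0.15 without week 2 batch 1 animal 6. It was -0.08 with array quality weights, -0.12 with the mean of all probe sets of a gene and -0.17 with the actin difference as a covariate. An unadjusted p under 0.05 was found for 6 lead probe sets, with Vamp2, Stx1a and Syp lower and Vamp1, Snap25 and Syt4 higher. The animals of the 2 ages did not overlap in Vamp1 and Snap25, the same 2 of 9, beside 14.7% of all tested. In bulk tissue, fewer cells of a type and less RNA per cell cannot be told apart.

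**Figure D1:**
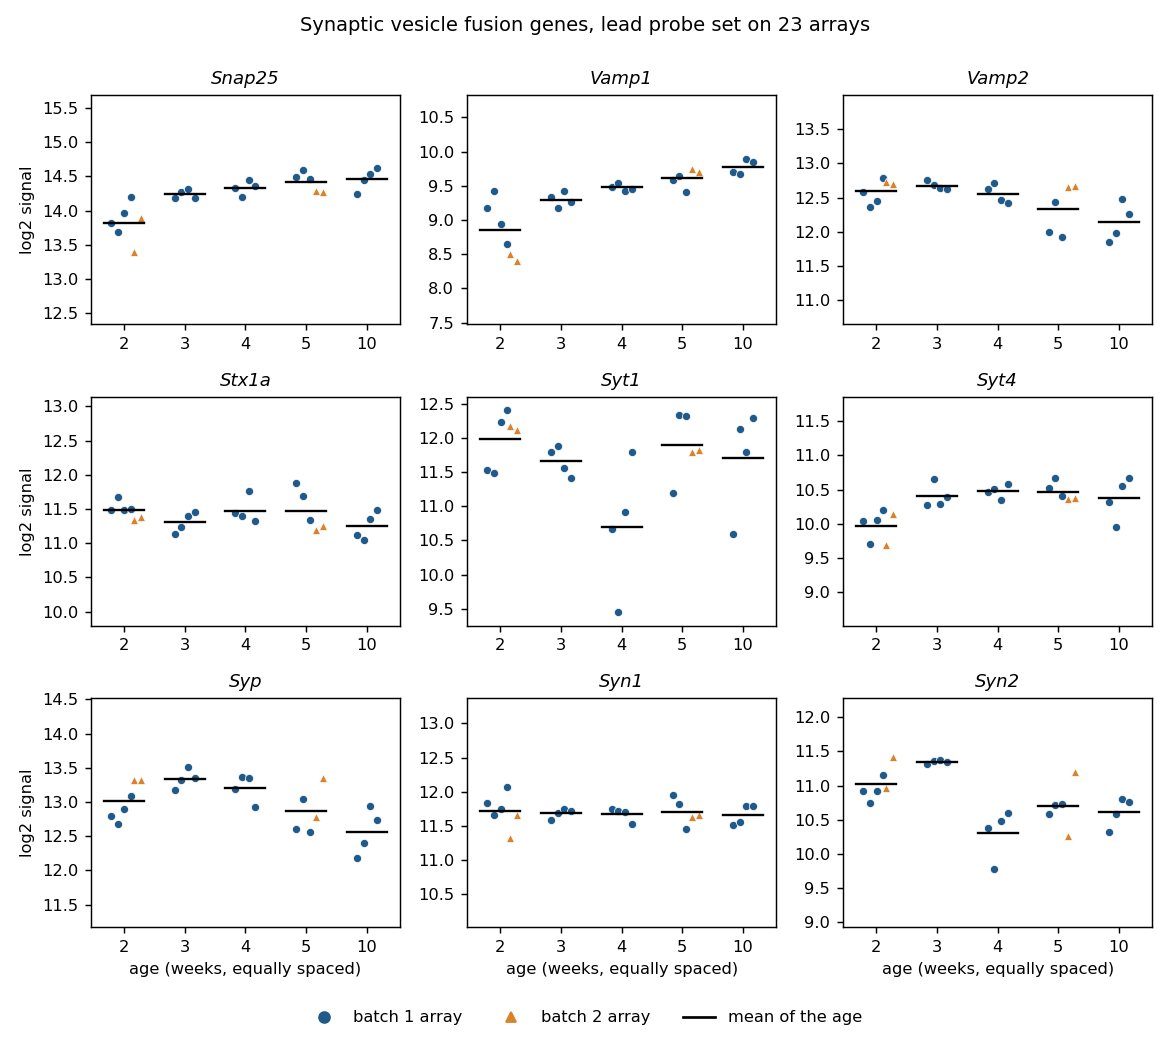
Log2 signal of the lead probe set of each member (y axis, the same span in every panel) at weeks 2, 3, 4, 5 and 10 (x axis, equally spaced), with 1 point per array, circles for batch 1, triangles for batch 2 and a bar at the mean of the age. Vamp1 and Snap25 sit higher at week 10 than at week 2 without overlap, Syn1 is flat, and Syt1 and Syn2 have their lowest arrays at week 4.

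Vamp1, the vesicle SNARE also called synaptobrevin 1 and encoded on chromosome 6, had the largest change of the 9 lead probe sets between week 10 and week 2. Its log2 signal was 9.70, 9.67, 9.89 and 9.84 at week 10, against a lowest, median and highest value of 8.40, 8.80 and 9.43 at week 2. Every week 10 animal lay above every week 2 animal. The fitted rise was 0.85 (SE 0.14, n = 4 and 6), 1.81-fold, with an adjusted p of 2.59e-04 by limma. Between those ages the signal was 9.33, 9.17, 9.43 and 9.26 at week 3, then 9.48, 9.54, 9.43 and 9.46 at week 4, then 9.59, 9.75, 9.70, 9.64 and 9.41 at week 5. The mean was therefore higher at each later age, at 8.85 ± 0.40 (SD, n = 6), 9.30 ± 0.11 (SD, n = 4), 9.48 ± 0.05 (SD, n = 4), 9.62 ± 0.13 (SD, n = 5) and 9.78 ± 0.11 (SD, n = 4) for weeks 2, 3, 4, 5 and 10, although animals of neighbouring ages overlapped throughout. The 2 lowest of the 23 values were the batch 2 arrays of week 2. In a fit with scan days as fixed effects instead of batch, which could not include week 3, the change was 1.32 (adjusted p = 1.38e-04). On scan day 4, the only day with both ages, Vamp1 was 9.84 in the week 10 array and 8.65 in the week 2 array.

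Promoter windows of 2 members are shown because Vamp1 had the largest change in week 10 against week 2 among the lead probe sets and Syn1 the smallest in size. Both are RefSeq windows in GRCm38.p6, from 250 bases before the gene's start to 50 bases after it, and RefSeq windows were found for 6 of the 9 members. Capitals mark the motifs searched on both strands: GGGCGG (GC box), CCAAT (bound by NF-Y), TTCAGCACC (part of the neuron-restrictive silencer element), TGACGTCA (cyclic AMP response element), CACGTG (E-box) and TATAAA (the core promoter element).
Vamp1, chr6:125215331-125215630, plus strand: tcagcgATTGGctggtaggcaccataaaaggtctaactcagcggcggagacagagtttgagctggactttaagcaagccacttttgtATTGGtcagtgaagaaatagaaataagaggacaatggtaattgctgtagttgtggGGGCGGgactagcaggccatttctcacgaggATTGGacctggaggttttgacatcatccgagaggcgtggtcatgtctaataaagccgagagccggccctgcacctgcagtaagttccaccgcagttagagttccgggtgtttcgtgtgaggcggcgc
Syn1, chrX:20920869-20921168, minus strand: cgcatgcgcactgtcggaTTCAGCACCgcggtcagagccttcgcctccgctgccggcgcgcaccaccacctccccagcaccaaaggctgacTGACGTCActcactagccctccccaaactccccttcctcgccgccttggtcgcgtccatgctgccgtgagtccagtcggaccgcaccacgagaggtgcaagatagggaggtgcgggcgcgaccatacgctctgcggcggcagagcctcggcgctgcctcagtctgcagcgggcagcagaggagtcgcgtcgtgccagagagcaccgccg

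The Vamp1 window held GGGCGG once and the reverse complement of CCAAT 3 times. Over 32851 RefSeq promoter windows of the same length, GGGCGG was present in 35.7% and CCAAT in 37.4%. The Syn1 window held TTCAGCACC once, a sequence present in 0.371% of the windows, and TGACGTCA once, present in 1.79%. Neither window held CACGTG, present in 7.15% of windows, or TATAAA, present in 13.6%. These are matches of letters, and no binding was measured.

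Vamp2, synaptobrevin 2 on chromosome 11, was not called in week 10 against week 2. Its signal was 11.85, 11.98, 12.48 and 12.26 at week 10, against a lowest, median and highest value of 12.35, 12.64 and 12.79 at week 2. The ages overlapped, because week 10 animal 7 lay inside the week 2 range. The fitted difference was -0.34 (SE 0.13, n = 4 and 6; adjusted p = 0.0749), and without week 10 animal 7 it was -0.46 (adjusted p = 0.0212) and without a batch term -0.46 (adjusted p = 0.0271). It was -0.26 without scan day 1 (adjusted p = 0.207) and -0.30 with scan days as fixed effects (adjusted p = 0.390). With single arrays left out it was -0.46 to -0.24. Across weeks 2, 3, 4, 5 and 10 the means were 12.60 ± 0.17 (SD, n = 6), 12.68 ± 0.06 (SD, n = 4), 12.55 ± 0.14 (SD, n = 4), 12.34 ± 0.36 (SD, n = 5) and 12.14 ± 0.28 (SD, n = 4). Within week 5 the 2 batch 2 arrays read 12.66 and 12.66 and the batch 1 arrays 12.00, 12.43 and 11.92, so the batches did not overlap there. The second Vamp2 probe set was not called either in week 10 against week 2, at -0.69 (SE 0.55, adjusted p = 0.418, limma).

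Snap25, the plasma membrane SNARE on chromosome 2, rose between weeks 2 and 10. Its signal was 14.24, 14.45, 14.54 and 14.62 at week 10, against a lowest, median and highest value of 13.39, 13.85 and 14.20 at week 2. The ages did not overlap, and the gap was narrow: the lowest week 10 value was the scan day 1 array, at 14.24, and the highest week 2 value was animal 6, at 14.20. The fitted rise was 0.55 (SE 0.11, n = 4 and 6), 1.47-fold (adjusted p = 9.24e-04, limma). Means for weeks 2, 3, 4, 5 and 10 were 13.82 ± 0.27 (SD, n = 6), 14.24 ± 0.07 (SD, n = 4), 14.33 ± 0.10 (SD, n = 4), 14.42 ± 0.14 (SD, n = 5) and 14.46 ± 0.16 (SD, n = 4). The largest step in these means, which take no account of batch, was week 3 against week 2, at 0.42, and the later steps were 0.04 to 0.09. In the fit with batch, week 3 against week 2 was 0.33 and week 4 against week 3 was 0.09. In the same fit, week 5 against week 4 was 0.19 and week 10 against week 5 was -0.06. Leaving out scan day 1, the fitted rise was 0.63 (adjusted p = 7.91e-04), and with scan days as fixed effects it was 0.47 and lost its call (adjusted p = 0.0697). On scan day 4 Snap25 was 14.62 in the week 10 array and 14.20 in the week 2 array.

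Stx1a, syntaxin 1A, the syntaxin partner of Snap25 in the fusion complex, differed by -0.32 (SE 0.12; adjusted p = 0.0635) in week 10 against week 2 and was not called. Its signal was 11.12, 11.05, 11.36 and 11.49 at week 10, against a lowest, median and highest value of 11.34, 11.49 and 11.68 at week 2, and the ages overlapped. Leaving out week 10 animal 8, week 5 batch 1 animal 8 or week 4 animal 3 gave a call, with adjusted p values of 0.0332, 0.0435 and 0.0490, and so did the mean of both probe sets, at -0.53 (adjusted p = 0.0106). The lead probe set was not called without scan day 1 (-0.26, adjusted p = 0.158) or with scan days as fixed effects (-0.28, adjusted p = 0.428). With single arrays left out its change was -0.40 to -0.25, with adjusted p values up to 0.183. The second Stx1a probe set fell by 0.73 (SE 0.20; adjusted p = 0.0158), and read 9.62, 10.40, 10.81 and 10.80 at week 10 against 10.99 to 11.48 at week 2, with no overlap. Its lowest value, 9.62, was the scan day 1 array. The plasma membrane SNAREs of the group thus gave a rise in Snap25 and, for Stx1a, a fall in 1 of 2 probe sets.

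Of the calcium sensors, Syt1, synaptotagmin 1, the sensor of fast transmitter release, varied more between arrays than any other lead probe set of the group, over a range of 2.95. It read 10.60, 12.13, 11.79 and 12.30 at week 10, against a lowest, median and highest value of 11.48, 12.15 and 12.40 at week 2. The week 10 value of 10.60 was the scan day 1 array. The fitted difference was -0.27 (SE 0.38, n = 4 and 6; adjusted p = 0.671), and it was 0.05 when scan day 1 was left out. Week 4 read 10.66, 9.45, 10.91 and 11.79, and the highest of these was animal 6, the week 4 array with the lowest actin difference.

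Syt4, a synaptotagmin that differs from Syt1 at a calcium-binding residue of its first C2 domain and is found on dense-core and other vesicles, is encoded on chromosome 18. Its signal was 10.31, 9.96, 10.55 and 10.67 at week 10, against a lowest, median and highest value of 9.69, 10.05 and 10.20 at week 2. Only week 10 animal 6, at 9.96, lay inside the week 2 range. The difference was 0.36 (SE 0.13, n = 4 and 6; adjusted p = 0.0676) and was not called; without week 10 animal 6 it was 0.50 (adjusted p = 0.0104) and without week 2 batch 2 animal 2 it was 0.39 (adjusted p = 0.0438). The lead probe set was also called with every array median set equal (0.41, adjusted p = 0.0407), after a further quantile normalisation (0.40, adjusted p = 0.0469), with array quality weights (0.44, adjusted p = 0.0207) and without a batch term (0.40, adjusted p = 0.0286). With the animal number as a replicate block it was 0.27 (adjusted p = 0.292). The second Syt4 probe set rose by 0.34 (SE 0.10; adjusted p = 0.0226), with 10.49, 10.25, 10.40 and 10.46 at week 10 against 9.79 to 10.27 at week 2, and the ages overlapped by 1 week 10 array. Means of the lead probe set for weeks 2, 3, 4, 5 and 10 were 9.97 ± 0.22 (SD, n = 6), 10.40 ± 0.17 (SD, n = 4), 10.47 ± 0.10 (SD, n = 4), 10.47 ± 0.13 (SD, n = 5) and 10.37 ± 0.31 (SD, n = 4).

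Among the vesicle-associated proteins, Syp, synaptophysin, an abundant vesicle membrane protein that binds VAMP2, was highest on average at week 3. Its means for weeks 2, 3, 4, 5 and 10 were 13.02 ± 0.27 (SD, n = 6), 13.34 ± 0.14 (SD, n = 4), 13.21 ± 0.20 (SD, n = 4), 12.87 ± 0.33 (SD, n = 5) and 12.57 ± 0.34 (SD, n = 4). Week 10 read 12.18, 12.41, 12.95 and 12.74, against a lowest, median and highest value of 12.68, 12.99 and 13.33 at week 2, and the ages overlapped. The difference was -0.32 (SE 0.15; adjusted p = 0.162), and with single arrays left out it was -0.44 to -0.19, the smallest without week 10 animal 1. Syn1, synapsin I, was the flattest member, with a week 10 mean of 11.67 ± 0.15 (SD, n = 4), a week 2 mean of 11.72 ± 0.25 (SD, n = 6) and a fitted difference of -0.12 (SE 0.11; adjusted p = 0.468), or -0.17 to -0.05 with single arrays left out, the smallest without week 2 batch 1 animal 6. The means of Syn1 at all 5 ages lay between 11.67 and 11.72.

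Syn2, synapsin II, had the only call between weeks 4 and 3. Its signal was 10.38, 9.79, 10.49 and 10.61 at week 4, against 11.31, 11.36, 11.38 and 11.35 at week 3, with no overlap. The fitted fall was 1.03 on the log2 scale, 2.05-fold (SE 0.18, n = 4 and 4; adjusted p = 5.32e-04, limma). The second Syn2 probe set fell by 1.72, with 9.45, 8.88, 9.97 and 10.19 at week 4 against 11.22 to 11.45 at week 3. The actin 3′ minus 5′ difference was 1.50 to 2.28 at week 4 and 1.07 to 1.24 at week 3, and with it as a covariate the change was -0.44 and no longer called (adjusted p = 0.654). The call was also lost when scan days entered as random blocks, whether these replaced the batch term (-0.90, adjusted p = 0.107) or stood beside it (-0.90, adjusted p = 0.0857). No scan day held both ages, so age and scan day cannot be told apart for this step. The actin ranges of the 2 ages did not overlap either, so the covariate separates the actin difference from age poorly. In week 10 against week 2 Syn2 differed by -0.35 (SE 0.17; adjusted p = 0.175).

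**Figure D2:**
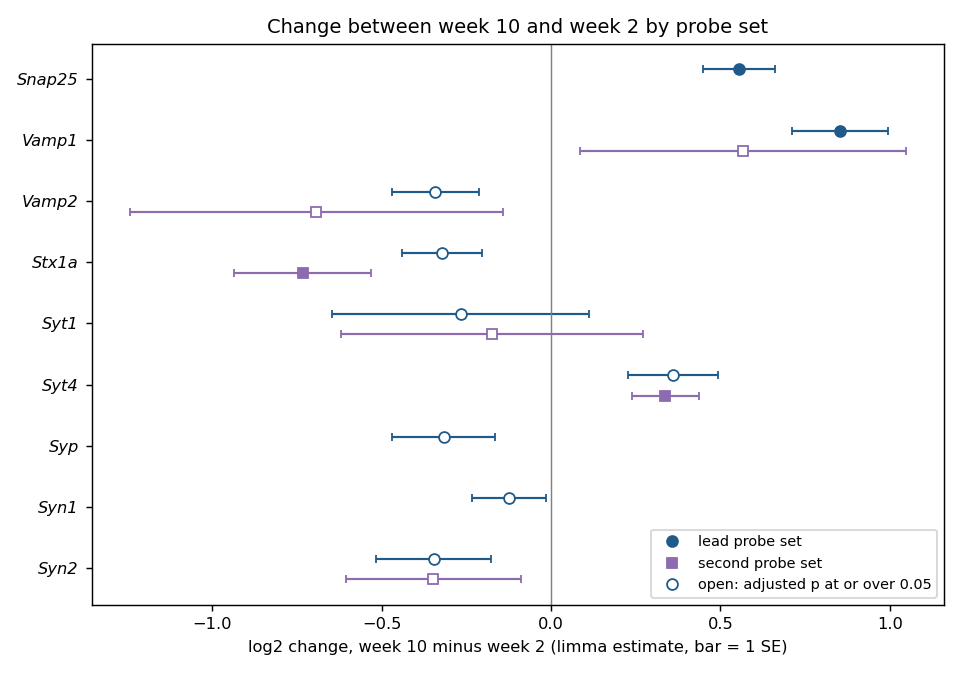
Fitted log2 change, week 10 minus week 2, of each member (y axis) for the lead probe set (circles) and the tested second probe set (squares), with bars of 1 SE and filled symbols at an adjusted p under 0.05. Vamp1 at 0.85 and Snap25 at 0.55 are filled and to the right of 0, and the second probe sets of Vamp2, Vamp1 and Syt1 have the widest bars.

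The balance of the 2 vesicle SNAREs was followed as the log2 signal of Vamp1 minus that of Vamp2 on the same array. The value itself depends on the 2 probe sets, so only its differences between ages are read. It was -2.15, -2.31, -2.59 and -2.41 at week 10, against a lowest, median and highest value of -4.30, -3.82 and -2.93 at week 2. Every week 10 animal was above every week 2 animal. The week 10 mean was -2.37 ± 0.19 (SD, n = 4), against -3.75 ± 0.55 (SD, n = 6) for week 2, a difference of 1.39, or a 2.61-fold higher ratio of Vamp1 to Vamp2 signal. An exact 2-sided permutation test over arrays gave p = 0.00952, the smallest these group sizes allow, and an adjusted p of 0.0476 over the 5 comparisons of ages. These means and this test take no account of batch, unlike the fitted changes of single members. Week 10 held no batch 2 array, and the batch 2 arrays of week 2 had the lowest values, -4.22 and -4.30. Within batch 1 alone the difference was 1.13. In the fit with batch, Vamp1 changed by 0.85 and Vamp2 by -0.34. The pair was chosen with earlier results of these data known.

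The intermediate ages filled the range in order. The means were -3.75 ± 0.55 (SD, n = 6), -3.38 ± 0.13 (SD, n = 4), -3.07 ± 0.10 (SD, n = 4), -2.72 ± 0.24 (SD, n = 5) and -2.37 ± 0.19 (SD, n = 4) for weeks 2, 3, 4, 5 and 10. Week 4 read -3.15, -3.16, -3.03 and -2.96, against -3.42, -3.52, -3.22 and -3.36 at week 3, with no overlap, while every other neighbouring pair of ages overlapped. None of the neighbouring steps passed after adjustment over the 5 comparisons: week 3 against week 2 was 0.37 (exact permutation, adjusted p = 0.238), week 4 against week 3 0.30 (adjusted p = 0.0529), week 5 against week 4 0.36 (adjusted p = 0.0529) and week 10 against week 5 0.35 (adjusted p = 0.0794). The unadjusted p of week 4 against week 3, 0.0286, was the smallest that 4 against 4 arrays allow.

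Week 2 was wide in this difference, and its arrays followed their scan days. The 3 arrays of scan day 3 read -3.41, -2.93 and -3.52, and the 3 of days 4 and 7 read -4.13, -4.22 and -4.30. On scan day 4 the value was -2.41 in the week 10 array and -4.13 in the week 2 array, and on day 7 it was -2.96 in the week 5 array and -4.22 and -4.30 in the week 2 arrays. On scan day 2 it was -2.31 and -2.59 in the week 10 arrays and -2.80 and -2.51 in the week 5 arrays, which overlapped. With batch as a term the week 10 against week 5 step was 0.12 and the week 5 against week 4 step 0.59. Within batch 1 alone the week 10 against week 2 difference was 1.13 (exact permutation, adjusted p = 0.0714), with an unadjusted p of 0.0286, the smallest that 4 against 4 arrays allow.

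**Figure D3:**
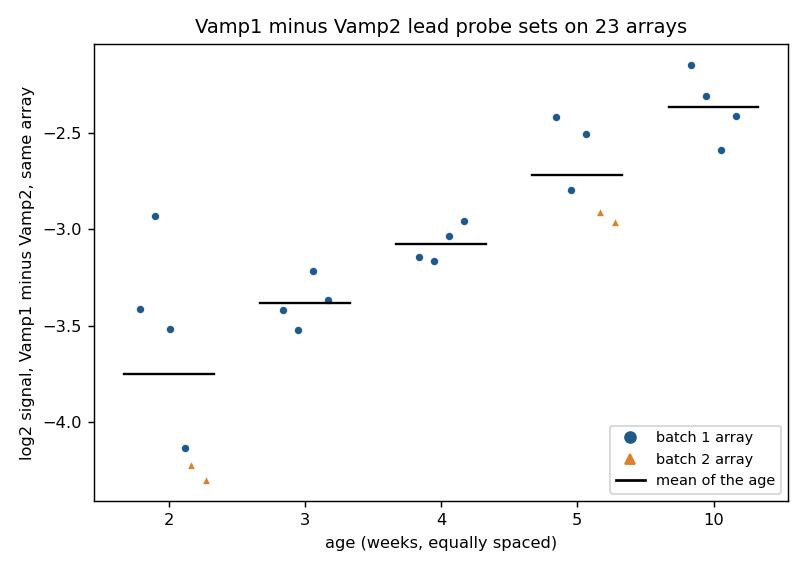
Log2 signal of the Vamp1 minus the Vamp2 lead probe set on the same array (y axis) at weeks 2, 3, 4, 5 and 10 (x axis, equally spaced), with 1 point per array, circles for batch 1, triangles for batch 2 and a bar at the mean of the age. The mean is higher at each later age, at -2.37 at week 10 against -3.75 at week 2, and the 6 week 2 arrays spread over -4.30 to -2.93.

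Week 3 against week 2 asked for the earliest change. Of the 9 lead probe sets 3 were called, all higher, beside 16% of all tested probe sets called and 6.67% called higher. Snap25 rose by 0.33 (SE 0.11, adjusted p = 0.0385), with 14.18, 14.27, 14.32 and 14.19 at week 3 against 13.39 to 14.20 at week 2. Syp rose by 0.46 (SE 0.15, adjusted p = 0.0452), with 13.18, 13.33, 13.51 and 13.35 at week 3 against 12.68 to 13.33 at week 2. Syt4 rose by 0.39 (SE 0.13, adjusted p = 0.0489), with 10.28, 10.65, 10.29 and 10.40 at week 3 against 9.69 to 10.20 at week 2. Of the 3, only Syt4 had animals that did not overlap between the ages, as did 11.3% of all tested probe sets. Vamp1 differed by 0.37 (SE 0.14, adjusted p = 0.0812).

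All 3 calls were near the threshold. The Snap25 call was lost without any 1 of week 2 batch 1 animals 3, 4 and 5, week 3 animals 2, 3, 5 and 6, or week 5 batch 2 animal 4, with adjusted p values of 0.0505 to 0.103. The Syp call was lost without any 1 of 13 arrays, namely batch 2 animals 1 and 2 and batch 1 animals 3, 4 and 5 of week 2, animals 3, 5 and 6 of week 3, animals 1 and 3 of week 4, and batch 1 animals 2 and 8 and batch 2 animal 4 of week 5, with adjusted p values of 0.0511 to 0.129. The Syt4 call was lost without any 1 of 17 arrays, with adjusted p values of 0.0509 to 0.167. It was kept only without batch 2 animal 2 or batch 1 animal 6 of week 2, batch 2 animal 2 or batch 1 animal 7 of week 5, or animals 6 or 8 of week 10. The second Syt4 probe set was not called, at 0.22 (adjusted p = 0.143). No member was called with random blocks for scan days, with the actin difference as a covariate, or with week 2 animal 5 taken as batch 2, the batch its description gives. Without a batch term Syp was not called (0.32, adjusted p = 0.213). The lead Syt4 probe set was not called in batch 1 alone (0.40, adjusted p = 0.0535) or with every array median set equal (0.38, adjusted p = 0.0549). The share of all tested probe sets called in these fits is not given here. All week 3 arrays were scanned on a day without another age.

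In the remaining steps, week 4 against week 3 called 1 of 9 lead probe sets, the Syn2 fall, beside 11.4% of all tested called and 6.55% called lower. Animals of the 2 ages did not overlap in Syn2 alone of the 9, beside 19.2% of all tested. Week 5 against week 4 called 0 of 9 in limma, beside 0.0745% of all tested, with 3 members at an unadjusted p under 0.05. These were Syp at -0.50 (SE 0.16), Syt1 at 1.17 (SE 0.40) and Vamp2 at -0.35 (SE 0.14). Without week 4 animal 6, Syt1 was called in both steps around week 4, at 1.53 in week 5 against week 4 (adjusted p = 0.0464) and at -1.32 in week 4 against week 3 (adjusted p = 0.0259), against -0.96 (adjusted p = 0.128) with it. Without week 4 animal 2, the array with the lowest Syt1 signal, the steps were smaller, at 0.75 (adjusted p = 0.599) in week 5 against week 4 and -0.54 (adjusted p = 0.436) in week 4 against week 3. Week 10 against week 5 called 0 of 9, beside 0.0311% of all tested, and 1 member, Stx1a at -0.33 (SE 0.12), had an unadjusted p under 0.05. The moderated F-test among the 5 ages called 6 of 9, Snap25, Vamp1, Vamp2, Syt4, Syp and Syn2, beside 31.6% of all tested. With random blocks for scan days it called Snap25 and Vamp1 where they replaced the batch term, and these and Syp where they stood beside it. The share of all tested probe sets called with those blocks is not given here. In no member did 2 ages next to each other in the order of means separate without overlap.

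Weeks 5 and 2 were the only ages in both batches, so their difference was also taken within each batch. Snap25 rose in both, by 0.60 in batch 1 (SE 0.12, adjusted p = 0.00387) and by 0.63 in batch 2 (SE 0.16, adjusted p = 0.0139). In batch 1 it averaged 14.52 ± 0.07 (SD, n = 3) in week 5 mice and 13.92 ± 0.22 (SD, n = 4) in week 2 mice, and in batch 2 it was 14.28 and 14.27 at week 5 and 13.39 and 13.89 at week 2. The ages did not overlap in either batch, of which batch 2 held only 2 arrays of each age. The share of all tested probe sets without overlap within a batch is not given here, for Snap25 or for Vamp1. Vamp1 also rose in both, by 0.50 in batch 1 (SE 0.13, adjusted p = 0.0164) and by 1.27 in batch 2 (SE 0.16, adjusted p = 4.17e-05). In batch 1 Vamp1 averaged 9.55 ± 0.12 (SD, n = 3) in week 5 mice and 9.05 ± 0.33 (SD, n = 4) in week 2 mice, and in batch 2 it was 9.75 and 9.70 at week 5 and 8.51 and 8.40 at week 2. The ages overlapped in batch 1 by 1 array each and did not in batch 2. The batch 2 minus batch 1 difference of the Vamp1 change was 0.77 (SE 0.21) and did not pass (adjusted p = 0.0667), while 1.53% of all tested probe sets did. Syt4 rose by 0.53 in batch 1 (adjusted p = 0.0336) and differed by 0.45 in batch 2 (adjusted p = 0.176), and the difference between batches was -0.08 (adjusted p = 0.928). Thus 3 of 9 lead probe sets were called in batch 1, beside 9.33% of all tested, and 2 of 9 in batch 2, beside 9.81%. Vamp2 differed by -0.43 in batch 1 (adjusted p = 0.0608) and by -0.05 in batch 2 (adjusted p = 0.940).

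Lead and second probe sets of the same gene did not always move together between arrays. The second Vamp2 probe set ranged over 3.62, against 0.93 for the lead, and its lowest values, 7.74 at week 10 and 8.35 at week 5, were the scan day 1 arrays. The gap between the 2 Vamp2 probe sets was 1.40 to 4.11 on the log2 scale over the arrays. Both Syt1 probe sets were lowest in week 4 animal 2, at 9.45 and 7.68, and both Syn2 probe sets were lowest there too, at 9.79 and 8.88. In that array the actin difference was 2.27, while the lead probe sets of Vamp2, at 12.71, and Vamp1, at 9.54, were higher there than in the other week 4 arrays. That array also held the mean of 10.94 for the pituitary and other-region markers, and the part of other tissue in its values was not tested. The part of RNA integrity in the Syt1 and Syn2 values at week 4 was not tested beyond the fit with the actin difference as a covariate. For weeks 4 and 3 that fit separates the actin difference from age poorly, since their actin ranges did not overlap. In that fit the Syt1 change in week 4 against week 3 was 0.82 (adjusted p = 0.646), opposite in sign to -0.96. Vamp1 and Snap25 kept their week 10 against week 2 calls in it, at 0.80 (adjusted p = 7.99e-04) and 0.57 (adjusted p = 0.00142).

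The second Vamp1 probe set lay near the filter, at 3.64 to 6.38 over the arrays. It read 4.23, 6.13, 5.78 and 6.38 at week 10 and 4.76 to 5.24 at week 2, with a fitted difference of 0.57 (SE 0.48, adjusted p = 0.455). Here too the array of scan day 1 was the low one at week 10, below every week 2 array, while the other week 10 arrays were above them. The Vamp1 rise was therefore called by 1 of 2 probe sets, and the Vamp1 minus Vamp2 difference in week 10 against week 2 was 1.11 to 1.86 with the other pairings of probe sets. By exact permutation it was not called with the second Vamp1 probe set (1.11, adjusted p = 0.190) or the second Vamp2 probe set (1.86, adjusted p = 0.214). With both second probe sets it was 1.58 (adjusted p = 0.0476).

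**Figure D4:**
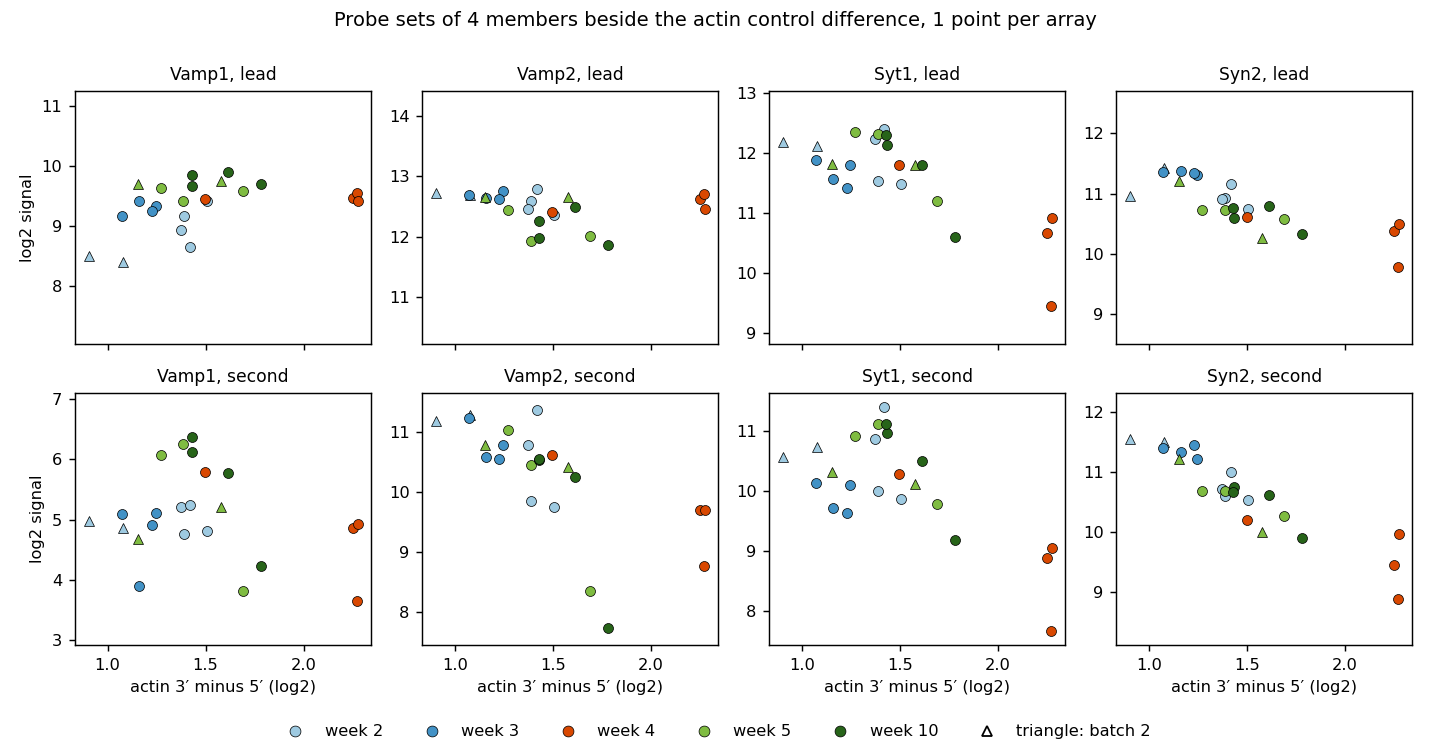
Log2 signal (y axis, the same span in every panel) of the lead (top) and second (bottom) probe sets of Vamp1, Vamp2, Syt1 and Syn2 against the actin 3′ minus 5′ difference of the same array (x axis, log2), with 1 point per array, colour for age and triangles for batch 2. The lowest Syt1 and Syn2 values belong to a week 4 array at 2.27, and the lead Vamp1 and Vamp2 probe sets of that array lie within the range of the other ages.

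The rest of the fusion and recycling machinery was taken as a list of 110 genes, of which 83 were tested, 25 had no probe set annotated to them alone and 2 were below the filter. In week 10 against week 2, limma called 5 higher and 8 lower, or 8 and 8 after a further quantile normalisation. Of all tested probe sets 17.1% were called, 6.4% higher and 10.7% lower. The median change of the 83 was -0.10, beside -0.0003 over all tested probe sets. For the 83 it was -0.02 without scan day 1, and -0.03 without week 10 animal 1 or with array quality weights. It was -0.05 with every array median set equal or after the further quantile normalisation, and -0.11 without week 2 batch 2 animal 1. Among 19 other SNARE proteins 2 rose and 1 fell. Stx3, a syntaxin of dendritic and apical membranes, rose by 0.79 (7.84 ± 0.41 at week 10, n = 4, and 6.89 ± 0.39 at week 2, n = 6, SD; adjusted p = 0.00493). Vti1b, an endosomal SNARE, rose by 0.61 (adjusted p = 2.31e-05), and Ykt6, a SNARE of Golgi traffic, fell by 0.43 (adjusted p = 0.00792). Of 13 SNARE regulators, Napb, the brain form of the SNAP adaptor that lets SNARE complexes be taken apart, rose by 0.38 and Cplx3, a complexin, fell by 0.45, with a Cplx3 signal of 4.98 at week 10, near the filter.

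Of 15 other synaptotagmins and calcium sensors tested, Syt2 alone was called. It rose by 0.66, at 6.55 ± 0.35 (SD, n = 4) in week 10 mice and 5.93 ± 0.16 (SD, n = 6) in week 2 mice (adjusted p = 0.00735). Syt2 is the fast sensor of many fast-spiking interneurons and hindbrain neurons. Of 14 other vesicle membrane proteins 3 fell and 0 rose, beside 10.7% of all tested probe sets called lower and 6.4% higher. The 3 were Rab3b, a vesicle GTPase, by 0.50, Syngr3 by 0.46 and Syngr1 by 0.37, the last 2 both synaptogyrins. At the active zone, Erc1, a scaffold of the release site, fell by 1.23, at 7.07 ± 0.08 (SD, n = 4) in week 10 mice and 8.39 ± 0.25 (SD, n = 6) in week 2 mice (adjusted p = 4.22e-08). Pclo, piccolo, a large scaffold of the same site, rose by 0.71 (adjusted p = 0.0011). Of 13 endocytosis genes, Ap2a1 fell by 0.74 and Ap2s1 by 0.45, both subunits of the AP-2 clathrin adaptor. Neither of the 2 tested transmitter transporters was called, with Slc32a1, the vesicular transporter of GABA and glycine, at -0.28 (adjusted p = 0.616).

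**Figure D5:**
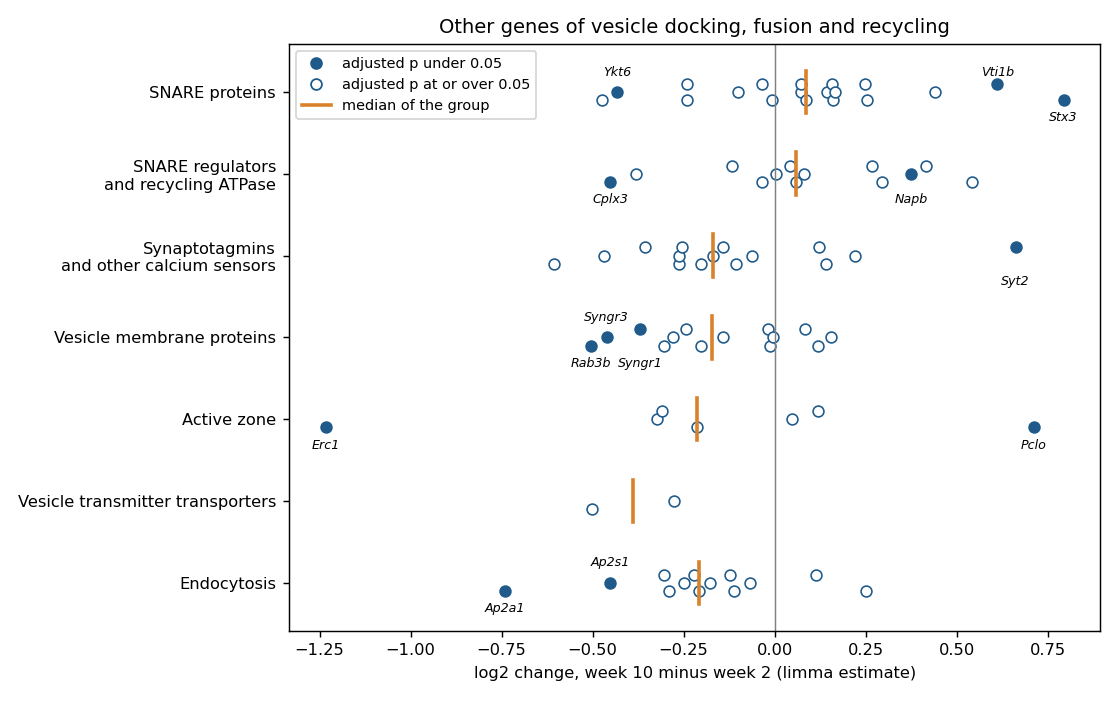
Fitted log2 change, week 10 minus week 2 (x axis), of the 83 tested genes of vesicle docking, fusion and recycling outside the 9 members, by group (y axis), with 1 circle per gene, filled at an adjusted p under 0.05, and an orange bar at the median of the group. The 13 filled genes lie on both sides of 0. Vesicle membrane genes, 3 of 14, and endocytosis genes, 2 of 13, are filled on the left side alone. Over all tested probe sets 10.7% were called lower and 6.4% higher.

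Markers of cell types were set beside the members. Of 8 interneuron markers 3 rose in week 10 against week 2 and none fell: Pvalb, the parvalbumin of fast-spiking interneurons, by 1.27 (adjusted p = 0.00384), Syt2 by 0.66 and Gad1, a GABA-synthesising enzyme, by 0.63. Over all tested probe sets 6.4% were called higher and 10.7% lower. Of the 5 interneuron markers that were not called, Slc32a1 was at -0.28, Npy at -0.26, Gad2 at 0.01, Sst at 0.09 and Vip at 0.25. The mean of the 8 markers was 9.13 to 9.51 over the arrays of week 10 and 8.68 to 9.13 over those of week 2. None of the 3 tested cortical projection neuron markers was called, and 4 of that list had no probe set annotated to them alone. The mean of those 3 was 7.78 to 9.48 at week 10 and 8.43 to 9.49 at week 2. None of 6 oligodendrocyte or 6 striatal markers was called. The striatal mean was 8.40 to 10.06 at week 10 and 8.33 to 9.78 at week 2, and the oligodendrocyte mean was 11.25 to 11.55 at week 10 and 10.70 to 11.90 at week 2. Of 6 astrocyte markers 1 rose and 2 fell, of 6 microglial markers 1 rose and 1 fell, and of 5 endothelial markers 3 fell, Vwf by 1.08, Cldn5 by 0.78 and Pecam1 by 0.61. The part of these cell types in the Vamp1 and Snap25 rises was not tested.

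Genes whose lead probe sets followed 3 of the members most closely over the 23 arrays were found by Pearson correlation, as a description of arrays that share scan days and normalisation. For Vamp1 these were Epdr1 (0.929), Aktip (0.916) and Prr13 (0.915). For Vamp2 they were Epn1 (0.941), Numbl (0.931) and Prkaca (0.915). For Syt4 they were Pls3 (0.878), Ndfip1 (0.875) and Hnrnpk (0.845). Over 9188 genes the median correlation was 0.05 for Vamp1, -0.03 for Vamp2 and -0.02 for Syt4. Their directions between ages followed from this choice and are no separate result. The genes nearest to Vamp1 were higher at week 10, as Epdr1 at 9.90 at week 10 and 8.87 at week 2. Those nearest to Vamp2 were lower, as Epn1 at 8.56 at week 10 and 9.33 at week 2.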

How the data were processed

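RNA of each animal was hybridised to an Affymetrix MOE430A array, per the scanner's record of each array. The deposited table gives log2 values that the authors made with GCRMA, per the submitters' processing notes, with the version not given in the sources used here. GCRMA adjusts background by probe affinity, normalises quantiles between arrays and summarises probe sets. The log2 values were used as deposited, and array medians lay between 6.15 and 6.27. The number of arrays limits the precision. Age, batch and animal number came from the titles, and week 2 animal 5 is batch 1 in its title and batch 2 in its description. Week 5 animal 2 occurs in both batches and was counted as 2 animals.

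Symbols came from the platform annotation, updated through Entrez identifiers to GRCm38.p6: 20393 probe sets had 1 symbol, 691 several and 1606 none. Of the 22690 probe sets, 64 were controls, and 16103 (71.2% of the rest) passed the filter. limma 3.58.1 in R 4.3.3 (lmFit, eBayes, 2-sided) fitted 1 model to all 23 arrays, with a coefficient for each age and 1 for batch, and Benjamini-Hochberg adjustment covered every tested probe set in each comparison. The fit was tested on simulated data. Vamp1 minus Vamp2 was tested by exact permutation in scipy 1.17.1.

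The members, lists and tests were chosen with earlier results of these data known. Besides the members, the named genes were up to 3 called genes of each group of the machinery list with the largest change, or, in a group with no call, its gene of highest mean, and the 3 genes most correlated with Vamp1, Vamp2 and Syt4. Cell type marker genes came from a list, and those named singly, Gh included, were picked after their values were seen. Alternatives covered batch, scan day, scaling, filter, limma settings, probe set choice, the actin difference, a block by animal number and each array left out, and those without scan day 1 or 7 were added after seeing the data. No sequence of Syt4 was used.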

Additional observations from a re-analysis of the deposited data

How the results depend on the processing

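The Vamp1 and Snap25 calls in week 10 against week 2 held in every alternative run on their lead probe sets, except that Snap25 lost its call with scan days as fixed effects, where 1 member was called. Without a batch term 4 members were called, as with the mean of all probe sets of a gene, and 3 with Syt4 added under either other scaling or with array weights. In week 3 against week 2, 0 members were called with week 2 animal 5 as batch 2, with random blocks for scan days (in place of or beside batch) or with the actin covariate, 1 with no filter, 1 with the animal number as a replicate block and 5 with array quality weights. In week 4 against week 3 the count was 0 with either random block and with the actin covariate, and 2 with array weights. In week 5 against week 4 it was 2 with array weights. Among ages, the random blocks left 2 (in place of batch) and 3. For the machinery list, 20 genes were called without batch and 8 with fixed scan days, against 13. The cause of these shifts was not tested. Apart from the scalings in week 10 against week 2, the share of all tested probe sets called in each setting is not given here. The shifts are therefore not read as particular to the members or the list. Animal numbers did not pair arrays: deviations of 25 same-number pairs correlated at -0.52 to 0.29 with a median of -0.12. The replicate block left 2 members called in week 10 against week 2.

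Signs turned only in changes that were not called. Syt1 was 0.12 with the actin covariate and 0.054 without scan day 1 in week 10 against week 2, and 0.82 with the covariate in week 4 against week 3. Syp was 0.11 with the mean of its probe sets in week 10 against week 2. The second Vamp1 probe set gave -0.31 in week 3 against week 2. The Vamp1 minus Vamp2 difference in week 10 against week 2 was at the smallest p its arrays allow, but over the adjusted threshold, in batch 1 alone (1.13, or 1.13 with week 2 animal 5 taken as batch 2) and without scan day 1 (1.31). It lost its call with the second Vamp2 probe set (1.86) and with the second Vamp1 probe set (1.11). With batch as a term its week 5 against week 4 step was 0.59 and its week 10 against week 5 step 0.12. In week 5 against week 4 it was -0.37 with the second Vamp2 probe set and -0.11 with both second probe sets. In week 3 against week 2 it was -0.30 with the second Vamp1 probe set and -0.31 with both.

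With single arrays left out, members called ranged over 2 to 3 in week 10 against week 2, 0 to 4 in week 3 against week 2, 1 to 2 in week 4 against week 3 and 0 to 1 in week 5 against week 4. Syt1 in week 10 against week 2 ranged over -0.46 to 0.10. The Vamp1 minus Vamp2 change ranged over 1.28 to 1.55 in week 10 against week 2, 0.28 to 0.42 in week 5 against week 4 and 0.28 to 0.43 in week 10 against week 5. Its week 10 against week 2 call was lost in 9 of 10 such tests, since fewer arrays raise the smallest p that can be reached, and was kept without week 10 animal 7. Another 29 member changes, none called as reported, changed sign in 55 of 1167 alternatives, in none of them with a call.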
